A study of Mus musculus with 2 samples.

Results

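The Fc receptor genes of the mouse were followed in single cells of bone marrow cultures. The 5 members, *Fcgr1*, *Fcgr3*, *Fcgr4*, *Fcgr2b* and *Fcer1g*, were chosen as a list of the Fc gamma receptor genes and their common chain, and all 5 were found among the 26124 genes of both count matrices. They were measured by library and culture day, and in cells gated on the UMIs (unique molecular identifiers, which count captured transcript ends) of 4 other genes. The cultures were grown from lineage-depleted bone marrow of C57BL/6 mice aged 8 to 10 weeks with GM-CSF at 20 ng/ml, a growth factor of dendritic cells, macrophages and granulocytes. On day 3, heme bound to albumin at 300 µM, or albumin alone as the control, was added. Each group was 1 library, a pool of 5 cultures marked with hashtags named for days 0, 3, 4, 5 and 7, and the mice behind each culture are not given separately. As the labels read, the cultures of days 0 and 3 stand for the time before addition, and their difference between the libraries served as the background. The sources do not settle this: the exposure times in the design text and the harvest days in the labels do not match for day 5, and the study also describes staggered starts with a common harvest, under which a hashtag day would not be a harvest day. The hashtag days are used here as named.

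Fc gamma receptors bind the constant part of IgG and let phagocytes take up or respond to antibody-coated particles. *Fcgr1* encodes the high-affinity receptor, *Fcgr3* and *Fcgr4* encode activating receptors of lower affinity, and *Fcgr2b* encodes the inhibitory receptor, which carries an inhibitory motif (ITIM) in its own tail. *Fcer1g* encodes the common gamma chain, which carries the activating motif (ITAM) for the activating receptors and holds them at the cell surface.

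*Fcgr2b* (chr1:170958617-170976547), *Fcgr4* (chr1:171018920-171029761), *Fcgr3* (chr1:171051174-171064935) and *Fcer1g* (chr1:171229572-171234365) lie near each other on chromosome 1, whereas *Fcgr1* lies on chromosome 3 (chr3:96282909-96293969), all in the GENCODE M21 annotation of GRCm38. *Fcgr4* is on the plus strand and the other 4 members are on the minus strand. *Fcgr2b* and *Fcgr3* are close relatives: 7.20% and 18.1% of the distinct 30-base words of their longest transcripts were found in another member. In the last 600 bases, which a 3′ library reads, 0 of 571 words of any member were shared with another, so the members could be told apart there. An antisense gene that overlaps *Fcgr2b* was not among the counted genes.

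The 100 bases before the transcription start are shown for each member, because the members moved differently between the cultures and this window lets their starts be compared. The RefSeq sequences of GRCm38.p6 are written 5′ to 3′ on the strand of the gene, and for *Fcgr3* the first of 2 listed starts was used. The windows of *Fcgr3* and *Fcgr2b* lie inside the GENCODE bounds given above. For these 2 genes the bases before the outermost GENCODE start were thus not examined. Capitals mark GAGGAA, the core letters read by the myeloid factor PU.1, or their complement on the other strand.
Fcgr1, chr3:96293970-96294069, minus strand: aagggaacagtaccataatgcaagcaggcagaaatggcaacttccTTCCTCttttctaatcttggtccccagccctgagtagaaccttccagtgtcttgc
Fcgr3, chr1:171059404-171059503, minus strand: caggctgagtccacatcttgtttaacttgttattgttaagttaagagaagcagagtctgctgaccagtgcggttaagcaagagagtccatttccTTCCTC
Fcgr4, chr1:171018826-171018925, plus strand: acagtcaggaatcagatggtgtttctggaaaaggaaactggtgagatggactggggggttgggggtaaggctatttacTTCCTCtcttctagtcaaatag
Fcgr2b, chr1:170976072-170976171, minus strand: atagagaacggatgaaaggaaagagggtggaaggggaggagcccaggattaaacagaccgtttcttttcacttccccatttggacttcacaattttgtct
Fcer1g, chr1:171234350-171234449, minus strand: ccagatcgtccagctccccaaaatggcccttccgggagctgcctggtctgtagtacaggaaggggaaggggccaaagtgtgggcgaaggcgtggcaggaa
The letters GAGGAA occurred once each, on the opposite strand, in the windows of the 3 activating receptors, starting at bases -55 (*Fcgr1*), -6 (*Fcgr3*) and -22 (*Fcgr4*), and in 9.76% of the 27025 mouse promoters of the same window. Neither TTCNNNGAA, a pattern read by STAT factors and found in 2.60% of all promoters, nor TGACNNNGC, the pattern of the heme-sensitive repressor BACH1 and of NRF2, found in 4.80%, occurred in any of the 5 windows on either strand. A match of letters is a description and not a binding site.

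After the limits of the study on genes and on mitochondrial and ribosomal UMIs, 9688 cells of the control library and 9944 of the heme library were kept, with 600 to 2717 cells and 6214021 to 34667889 UMIs in a culture. Levels are given as CPM, the UMIs of a gene per 1000000 UMIs of the culture. With 1 library in each group no test was possible, and the differences have no replicate check. All 95% intervals, exact for Poisson or binomial counts, cover counting error only. More heme than control cells exceeded the upper bound of 5000 genes and were left out: 16.4% to 33.9% against 4.82% to 8.34% of the single-hashtag cells of days 3 to 7. The ribosomal limit was exceeded by 59.8% of the day 0 single-hashtag cells of the control, but by 7.62% of those of the heme library. The libraries shared 112 barcodes, 33 of them among kept cells of both, and no member's heme to control ratio of days 3 to 7 left its interval without them. Markers of macrophages, dendritic cells, monocytes and neutrophils were present on days 3 to 7. Granulocyte-monocyte progenitor markers summed to 5566 CPM in the control and 2639 CPM in the heme library on day 3, and to 73.6 and 207 CPM on day 7. Basophil and mast cell markers summed to 217 and 219 CPM on day 3, and to 18.2 and 37.7 CPM on day 7. Over days 3 to 7 the summed level of the B cell list was at most 0.656 CPM, that of the NK cell list at most 0.231 CPM and that of the T cell list at most 0.539 CPM. Erythroid cells of day 0, taken as cells with at least 2 UMIs of *Klf1*, an erythroid transcription factor, were taken as the background of free RNA, since they should lack the receptors. In these 166 control and 174 heme cells, *Fcgr1* stood at 0.311 and 1.56 CPM, *Fcgr2b* at 3.73 and 4.37, *Fcgr3* at 2.80 and 6.24, *Fcgr4* at 0 and 0.624 and *Fcer1g* at 33.9 and 55.5. These levels were 0% to 7.82% of the mean of the library for the same gene.

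*Fcgr1*, the high-affinity receptor, had the largest log2 difference between the libraries among the 5 members on days 5 and 7, while on day 4 that of *Fcgr4* was larger. In the control cultures of days 0, 3, 4, 5 and 7 it stood at 1.13, 26.5, 35.2, 57.2 and 65.7 CPM. Its heme levels were 2.42, 24.4, 26.4, 23.3 and 14.1 CPM over these days. The control level thus went up at each step, whereas the heme level stayed between 23.3 and 26.4 CPM from day 3 to day 5 and was lower, at 14.1 CPM, on day 7. From day 3 to day 7, the control level was multiplied by 2.48 (95% interval 2.28 to 2.69) and the heme level by 0.579 (0.511 to 0.655). The ratio of heme to control was 0.919 (0.832 to 1.02) on day 3, before addition, and 0.752 (0.681 to 0.829), 0.407 (0.366 to 0.453) and 0.215 (0.192 to 0.240) on days 4, 5 and 7. A UMI of *Fcgr1* was found in 38.6% of 2717 control cells and in 15.2% of 2012 heme cells of day 7. With every cell thinned to 3000 UMIs, which kept 2544 and 1900 of these cells, the shares were 15.7% (14.3% to 17.2%) and 4.74% (3.83% to 5.79%), compared with 0 of 165 and 1 of 173 thinned erythroid cells of day 0.

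*Fcgr3*, an activating receptor of lower affinity, had control levels of 33.5, 129, 156, 179 and 227 CPM and heme levels of 43.1, 122, 139, 163 and 183 CPM on days 0, 3, 4, 5 and 7. Both series went up at every step, and the heme level was below the control level from day 3 on, other than on day 5 without the upper limit on genes. The ratios of days 3, 4, 5 and 7 were 0.946, 0.886, 0.912 and 0.805 (0.777 to 0.834), and that of day 5 became a log2 ratio of 0.20 without that limit.

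*Fcgr4*, the other activating receptor of lower affinity, passed through a peak. Its control levels were 0.644, 10.4, 21.5, 13.7 and 2.83 CPM and its heme levels were 1.66, 15.8, 35.6, 20.6 and 8.31 CPM on days 0, 3, 4, 5 and 7. Day 4 was the highest culture in both libraries. From day 4 to day 7 the control level was multiplied by 0.132 (0.105 to 0.164) and the heme level by 0.233 (0.201 to 0.270). The heme level was above the control level by 1.51-fold (1.31 to 1.75) already on day 3, and by 1.66-fold, 1.51-fold and 2.94-fold (2.31 to 3.77) on days 4, 5 and 7, although without the upper limit on genes the log2 ratio went from 0.60 to 0.05 on day 3 and turned to -0.30 on day 5. Set against the ratio of day 3, that of day 7 was 1.95 times as large and that of day 5 hardly differed.

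*Fcgr2b*, the inhibitory receptor, had control levels of 20.1, 102, 85.9, 89.7 and 161 CPM and heme levels of 31.0, 112, 101, 96.1 and 125 CPM. Both libraries had a shallow dip on days 4 and 5 and their highest level on day 7. The ratio was 1.10 (1.05 to 1.15), 1.18 (1.11 to 1.25) and 1.07 (1.01 to 1.14) on days 3, 4 and 5, where it was below 1 with TMM factors or DESeq2 size factors (and on day 5 in 6 of 10 alternatives), and 0.778 (0.745 to 0.812) on day 7, where it stayed below 1 in all 10 alternatives tried.

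*Fcer1g*, the common chain, had control levels of 426, 1480.5, 2106, 2126 and 1729 CPM and heme levels of 341, 1360.3, 1618, 1578 and 1437 CPM. The heme level was the lower one throughout, at 0.801 (0.763 to 0.841) of the control before culture and 0.919 (0.907 to 0.931) on the day of addition. After addition the ratios of days 4, 5 and 7 were 0.768 (0.759 to 0.778), 0.742 (0.732 to 0.753) and 0.831 (0.821 to 0.842). On day 0, *Fcer1g* stood at 837 and 427 CPM in cells outside all gates (ratio 0.510, 0.486 to 0.537) and at 33.9 and 55.5 CPM in the *Klf1* cells (1.64, 1.28 to 2.10), which made up 27.7% of kept control cells and 12.7% of kept heme cells. The part of this mixture in the day 0 ratio of the whole culture was not tested. On the same day, markers of basophils and mast cells, which use the common chain in their IgE receptor, summed to 3493 CPM in the control and 2178 CPM in the heme library, with all 5 of the list at 10 CPM or more in both. Their part in the day 0 difference was not tested.

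**Figure D1:**
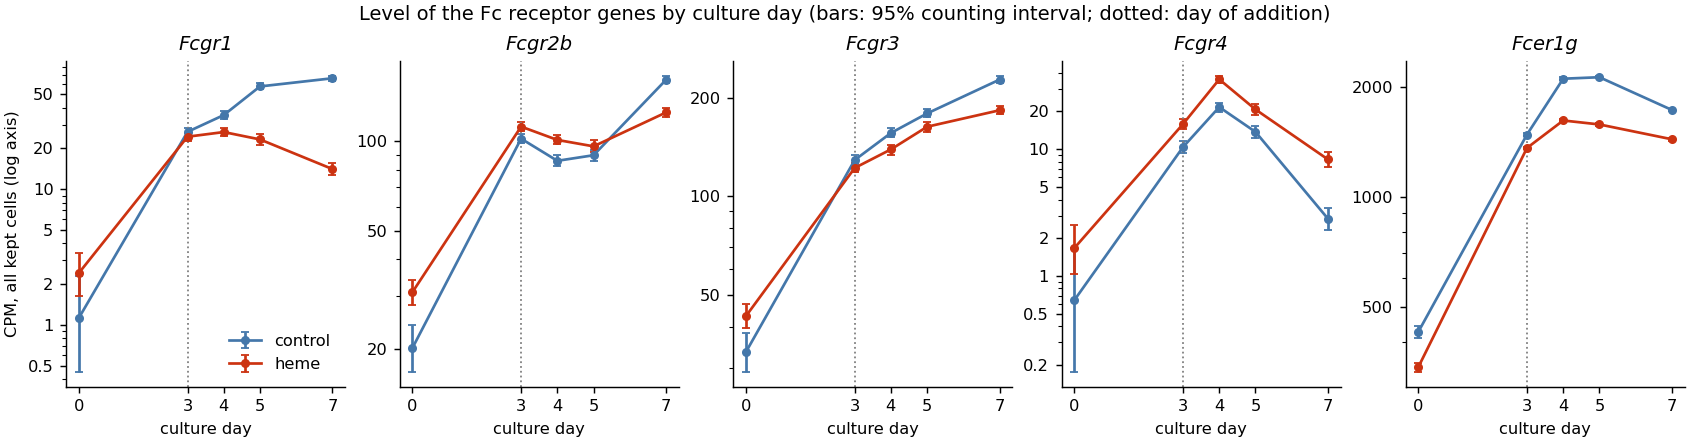
Level of the 5 members (CPM over all kept cells, log axis) by culture day in the control (blue) and heme (red) library, 1 pooled culture a point, with 95% counting intervals as bars. The *Fcgr1* lines part after the day of addition, to 65.7 and 14.1 CPM on day 7, while *Fcgr4* peaks on day 4 in both.

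Genes were compared by fold where the mean of both cultures was 10 CPM or more, and a gene was called at a ratio of 2 or above, or 0.5 or below. All 5 members were measured on days 3, 4 and 5, and 0 of them were called for days 3 and 4. For day 5, 1 of 5 was called, *Fcgr1*, as lower, which fell to 0 when cells were thinned to 3000 UMIs. For day 7, *Fcgr1* was again the 1 called among the 4 members that reached 10 CPM, as lower, and *Fcgr4* was past 2-fold higher at a mean below 10 CPM, which became 1.95-fold when divided by the day 3 ratio. Over all genes, the shares called higher in days 3, 4, 5 and 7 were 2.98%, 4.38%, 4.74% and 11.5%, and the shares called lower were 0.135%, 2.07%, 2.07% and 4.44%. The median log2 ratio of the members was -0.08, -0.17, -0.13 and -0.31 for the same days. The median of all genes compared was above 0 each time, at 0.25, 0.23, 0.21 and 0.28, before addition too, and TMM factors took it to between -0.08 and 0.01 after addition. Relative to that median, *Fcgr1* stood at -0.37, -0.64, -1.50 and -2.50 on days 3, 4, 5 and 7. *Fcgr4* stood at 0.35, 0.50, 0.38 and 1.28, *Fcgr3* between -0.33 and -0.59, *Fcer1g* between -0.37 and -0.64, and *Fcgr2b* between 0.00 and -0.11 up to day 5 and at -0.64 on day 7.

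**Figure D2:**
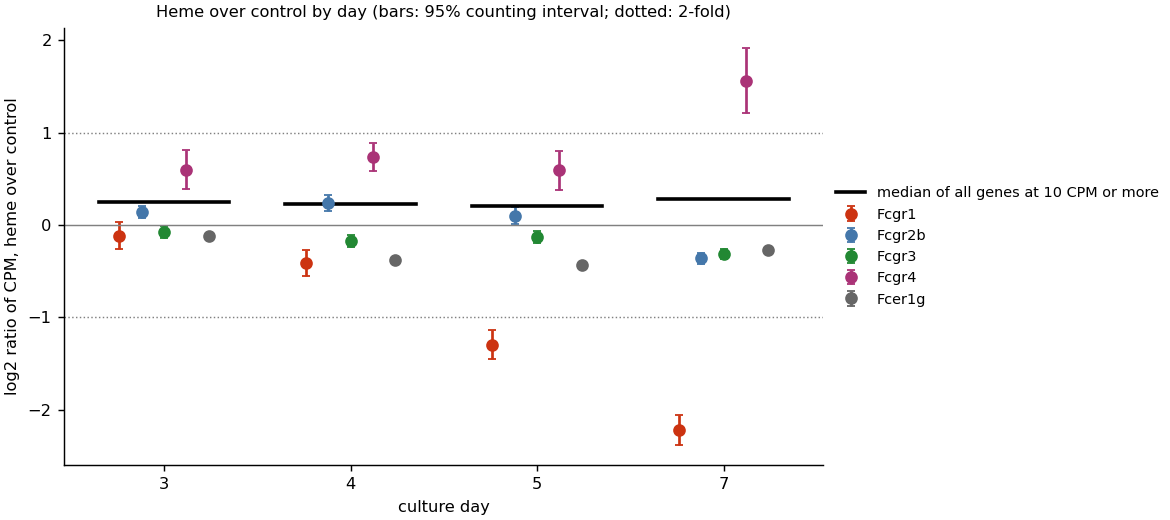
Log2 ratio of CPM of each member, heme over control, by culture day, with 95% counting intervals as bars, the median of all genes at 10 CPM or more as a black line and 2-fold as dotted lines. *Fcgr1* passes from -0.12 on day 3 to -2.22 on day 7, *Fcgr4* lies above the black line on all 4 days (at 0.05 and -0.30 for days 3 and 5 without the upper limit on genes, below the line as drawn), and the *Fcgr2b* points of days 3 to 5 change sign with TMM factors or DESeq2 size factors.

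The cultures held different cells, so the members were next measured in gated cells. The gates used no member: at least 1% of the UMIs of the cell from *S100a8* (a calcium-binding protein abundant in neutrophils), or, outside that gate, at least 3 UMIs of *Marco* (a scavenger receptor of macrophages), *Ccr7* (the chemokine receptor of migrating dendritic cells) or *C1qb* (a complement chain made by macrophages). The *S100a8* gate took 53.8%, 68.5%, 56.9% and 5.04% of the control cells of days 3, 4, 5 and 7, and 61.0%, 83.4%, 73.8% and 23.3% of the heme cells. On day 7 the *Ccr7* gate held 502 control cells (18.5%) and 37 heme cells (1.84%), the *C1qb* gate 641 (23.6%) and 13 (0.646%), and the *Marco* gate 12 (0.442%) and 715 (35.5%). Gates with fewer than 50 cells were given no level. On day 7, 30 control cells passed both *Ccr7* and *C1qb*, and 9 of the 13 heme cells of the *C1qb* gate also passed *Marco*. The gates were described by marker lists that leave out the gate genes. The macrophage list does hold *C1qa* and *C1qc*, the partner chains of *C1qb*, and the neutrophil list holds *S100a9*, the partner of *S100a8*. For day 7 the neutrophil list summed to 74364 and 95931 CPM in the control and heme *S100a8* gates, with all 7 markers at 10 CPM or more in both. A sum without *S100a9* was not taken, so the gate gene itself may carry much of these sums. The dendritic cell list summed to 4535 CPM in the *Ccr7* gate, with all 5 markers at 10 CPM or more. The macrophage list summed to 1008 CPM in the *C1qb* gate, with all 7 markers at 10 CPM or more, and to 1229.9 CPM in the *Marco* gate, with 5 of 7. In the *Marco* gate the neutrophil list was above the macrophage list, at 1814 CPM, but below the 2607 CPM of heme cells of no gate. It stood at 858 CPM in the *C1qb* gate and 653 CPM in the *Ccr7* gate, beside 1125 CPM in control cells of no gate. The *Klf1* cells of day 0, used as the background of free RNA, held it at 505 CPM in the control and 995 CPM in the heme library.

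*Fcgr1* differed between the gates of both libraries. On day 7 it stood at 108 CPM (101 to 114) in the *C1qb* gate of the control, 64.3 in control cells of no gate, 42.5 in the *S100a8* gate and 6.99 (5.11 to 9.32) in the *Ccr7* gate. In the heme library it stood at 5.40 CPM (4.16 to 6.90) in the *Marco* gate, 21.3 in cells of no gate and 22.5 in the *S100a8* gate. Among these groups the *C1qb* gate thus had the highest *Fcgr1* level, and the *Marco* gate of the heme library and the *Ccr7* gate of the control had the lowest, with overlapping intervals. The *C1qb* and *Marco* gates differed in other markers too. Without *C1qa* and *C1qc*, a choice made after seeing the data, the other 5 macrophage markers summed to 527 CPM in the *C1qb* gate, beside 568 in control cells of no gate, and to 1225 CPM in the *Marco* gate, beside 887 in heme cells of no gate. The dendritic cell list summed to 484 CPM in the *C1qb* gate and 47.1 CPM in the *Marco* gate, and in the *C1qb* gate of day 5 it was above the macrophage list, at 802 against 605 CPM. The part of these cells in the *Fcgr1* levels was not tested, and setting the *Marco* gate against the *C1qb* gate compares the libraries as well as the gates. *Fcgr1* in the *Marco* gate was 0.0503 (0.0384 to 0.0647) of that in the *C1qb* gate of the control, and 0.253 (0.189 to 0.336) of that in the heme cells of no gate, which became a log2 ratio of -1.30 instead of -1.98 without the upper limit on genes. The *Marco* and *C1qb* gates were nearer in other members: *Marco* over *C1qb* was 0.711 for *Fcgr2b*, 0.689 for *Fcgr3* and 0.748 for *Fcer1g*. After thinning, an *Fcgr1* UMI was seen in 25.7% of the *C1qb* gate and 1.68% of the *Marco* gate, against 66.8% and 8.67% before.

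The level also moved with the UMIs of the gate genes, in a split added after the gate values had been seen. Among heme cells of day 7 outside the *S100a8* and *Ccr7* gates, *Fcgr1* stood at 22.9 CPM in 613 cells without a *Marco* UMI, 16.5 in those with 1 or 2, 9.11 in those with 3 to 9 and 3.84 (2.63 to 5.42) in 481 cells with 10 or more. Along the same bins, *Fcgr2b* stayed between 124 and 146 CPM and *Fcgr3* between 177 and 202 CPM. Among control cells of day 7, *Fcgr1* went from 60.3 CPM in 1200 cells without a *C1qb* UMI over 76.0 and 96.6 to 132 (121 to 144) in 241 cells with 10 or more. The median depth was 12640.0 UMIs in the first and 17651 in the last bin of *Marco*, and 10886 and 15410.0 in those of *C1qb*, and its part was not tested.

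**Figure D3:**
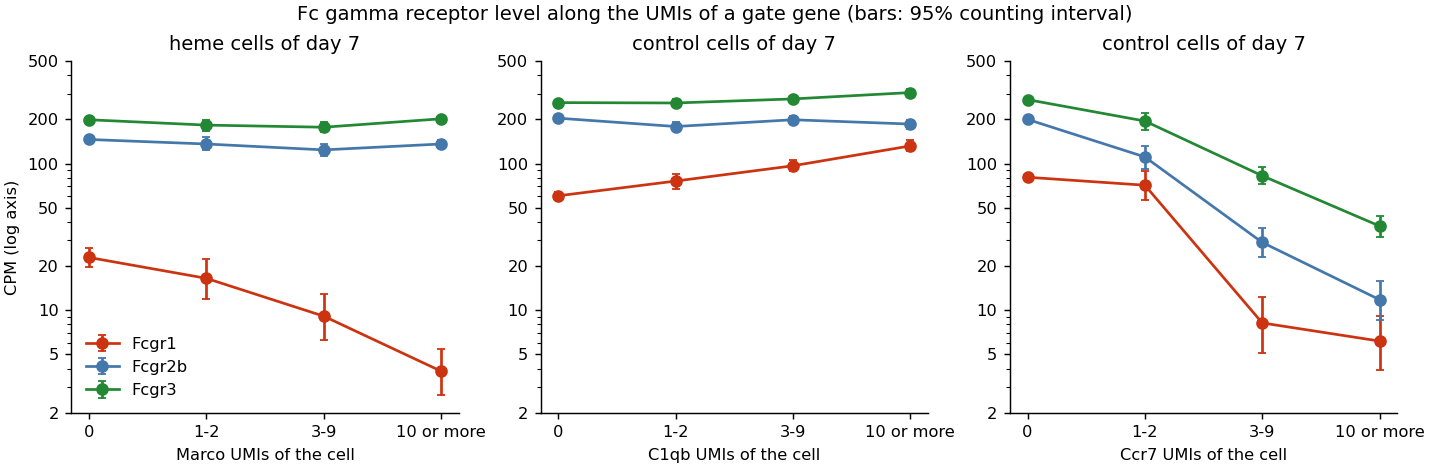
Level of the 3 receptor genes *Fcgr1*, *Fcgr2b* and *Fcgr3* (CPM, log axis) in day 7 cells binned by their UMIs of *Marco* (heme library), *C1qb* and *Ccr7* (both control library), with 95% counting intervals as bars. *Fcgr1* goes from 22.9 to 3.84 CPM along *Marco* and from 60.3 to 132 CPM along *C1qb*, and all 3 genes go down along *Ccr7*.

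Within the *S100a8* gate and in cells of no gate, *Fcgr1* was lower with heme on days 5 and 7 too. In cells of no gate the ratio to the control was 0.812 (0.695 to 0.947) before addition, and 0.395 (0.308 to 0.501), 0.311 (0.257 to 0.374) and 0.332 (0.286 to 0.384) for days 4, 5 and 7. In the *S100a8* gate it was 0.998 (0.870 to 1.15), 0.929 (0.823 to 1.05), 0.633 (0.543 to 0.737) and 0.528 (0.347 to 0.826) on the same days. The interval thus held 1 up to day 4 in the *S100a8* gate, and in cells of no gate it lay below 1 already before addition. In the *Ccr7* gate of day 5, with 10 and 5 *Fcgr1* UMIs, the ratio was 0.729 (0.195 to 2.34). The upper limit on genes kept 344 of 687 heme cells of no gate on day 4, 377 of 923 on day 5 and 784 of 1122 on day 7. In the control it kept 594 of 720, 758 of 906 and 1455 of 1516 such cells. The cells of no gate were a mixture, and on day 7 their dendritic cell markers summed to 277 CPM in the control and 44.4 CPM in the heme library and their macrophage markers to 584 and 889 CPM. The *S100a8* gate differed between the libraries too. Its markers of granulocyte-monocyte progenitors summed to 8299 CPM in the control and 3500.0 CPM in the heme library on day 3. The sums were 2225 and 348 CPM on day 4, 1078 and 291 CPM on day 5, and 537 and 615 CPM on day 7. The part of these mixtures was not tested.

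The *Ccr7* gate was low in every member. On day 7 in the control it held *Fcgr2b* at 18.8 CPM against 198 in cells of no gate, *Fcgr3* at 55.9 against 259, *Fcgr4* at 0.911 against 3.06 and *Fcer1g* at 583 against 2051. The ratios to cells of no gate were 0.109 (0.0791 to 0.146) for *Fcgr1*, 0.0949 (0.0787 to 0.114) for *Fcgr2b*, 0.215 (0.193 to 0.240) for *Fcgr3*, 0.298 (0.105 to 0.692) for *Fcgr4* and 0.284 (0.275 to 0.294) for *Fcer1g*. The median log2 ratio of the members was -2.22, and -4.00 with gates set after thinning, beside -0.35 over all genes compared. With more *Ccr7* UMIs the levels were lower still: *Fcgr2b* went from 200.2 CPM in cells without one over 111 and 29.0 to 11.8 CPM in cells with 10 or more, and *Fcgr3* from 273 to 37.5 CPM. On day 5 the gate had enough cells in both libraries, 141 and 90, and there *Fcgr3* stood at 27.4 and 30.3 CPM, *Fcgr2b* at 7.07 and 11.6, *Fcgr1* at 4.42 and 3.22, and *Fcer1g* at 412 and 325. *Fcgr4* had 0 and 2 UMIs there. The intervals of the heme to control ratio held 1 for *Fcgr1*, *Fcgr2b* and *Fcgr3*, and that of *Fcer1g* was 0.708 to 0.882. Low *Fcgr4* was not particular to the *Ccr7* gate. On day 7 *Fcgr4* stood at 1.39 CPM (0.759 to 2.33) in the *C1qb* gate of the control and 1.77 CPM (1.10 to 2.71) in the *Marco* gate of the heme library.

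**Figure D4:**
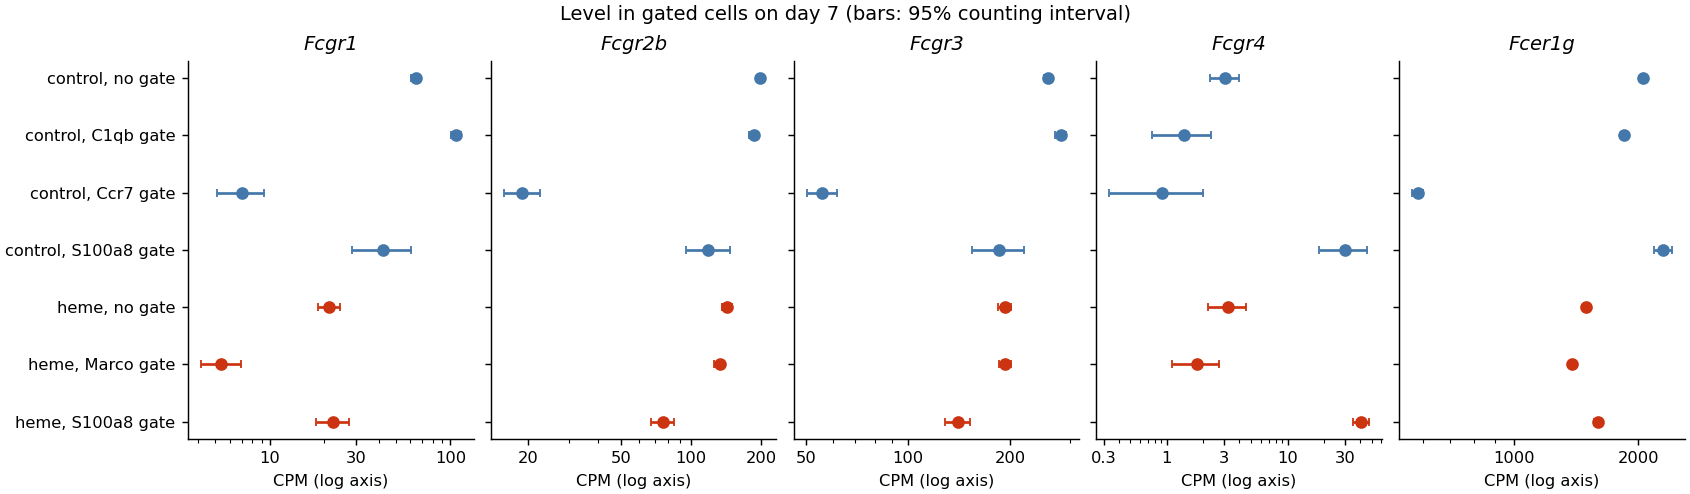
Level of each member (CPM, log axis, own scale for each gene) in the gated cells of day 7, control in blue and heme in red, with 95% counting intervals as bars. The *Marco* gate is low in *Fcgr1* (5.40 CPM) but not in *Fcgr2b* or *Fcgr3*, the *Ccr7* gate is low in all members, and the *S100a8* gate is high in *Fcgr4*. The *C1qb* and *Marco* gates are low in *Fcgr4* too.

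*Fcgr4* was found mainly in the *S100a8* gate, which carries neutrophil markers. Monocyte markers were present there too. Their list summed to 1203 and 1742 CPM in the control and heme gates of day 7, beside 842 and 810.4 CPM in cells of no gate. On day 3 the sums hardly differed, at 1818 and 2033 CPM in the gates and 1812 and 2047 CPM in cells of no gate. The part of such cells in the *Fcgr4* level was not tested. On day 4 *Fcgr4* stood in the gate at 35.8 CPM in the control and 46.4 CPM in the heme library, compared with 2.22 and 2.21 CPM in cells of no gate. The gate was thus 16.2-fold (10.6 to 26.0) and 21.0-fold (12.0 to 40.8) above cells of no gate. It held 87.9% to 98.7% of the *Fcgr4* UMIs of each culture on days 3 to 5, and 21.4% in the control and 75.9% in the heme library on day 7. Inside the gate the heme to control ratio was 1.32 (1.14 to 1.54) before addition, and 1.30 (1.17 to 1.44), 0.966 (0.833 to 1.12) and 1.36 (0.865 to 2.26) for days 4, 5 and 7. As log2 ratios these were 0.40, 0.37, -0.05 and 0.45, beside medians of 0.33, 0.36, 0.29 and 0.21 over all genes compared in the gate. The day 7 ratio inside the gate was therefore nearer to 1 than the 2.94 of the whole culture, and in cells of no gate it was 1.05 (0.661 to 1.65).

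The other members had other patterns in the *S100a8* gate. *Fcgr2b* was below the cells of no gate in all 8 cultures of days 3 to 7, at 0.375 to 0.644 of their level. In the gate *Fcgr2b* was higher in the heme library already before addition, at 68.4 against 57.4 CPM (ratio 1.19, 1.09 to 1.30). On day 4 it stood at 78.7 against 52.3 CPM (1.50, 1.38 to 1.64). It was lower with heme on day 7, at 75.7 against 119 CPM (0.636, 0.499 to 0.819). *Fcer1g* was lower with heme in the gate from day 4 on, with 2348, 2905 and 2295 CPM in the control of days 4, 5 and 7 and 1708, 1811 and 1598 CPM in the heme library. The ratios were 0.727, 0.623 and 0.696, after 0.936 before addition. *Fcgr3* differed less, with ratios of 1.03, 0.874, 0.897 and 0.757 (0.625 to 0.922) on days 3, 4, 5 and 7. The median log2 ratio of the members in the gate was -0.52 on day 7, beside 0.21 over all genes compared there. That of all genes compared in the gate was 0.33 on day 3, 0.36 on day 4 and 0.29 on day 5. The control gate of day 7 rests on 137 cells with a median of 3753 UMIs, and the heme gate on 469 cells with a median of 7451 UMIs. The progenitor markers of the gate, given above, also differed between the libraries. Their part in the ratios of any member, *Fcgr4* included, was not tested. The gate was also split by the UMIs of *Camp*, a neutrophil granule protein gene, after the values had been seen. For day 7 in the heme library *Fcgr4* stood at 24.3 CPM in the 231 gated cells with at most 2 *Camp* UMIs and at 53.6 CPM in the 181 with 10 or more. On day 5 it stood at 37.0 and 35.3 CPM in the same bins of the control and at 29.5 and 50.9 CPM in those of the heme library. Before addition, on day 3, it was higher in the upper bin of both, at 9.33 and 21.2 CPM in the control and 10.1 and 25.9 CPM in the heme library. The day 4 levels were 32.5 (25.5 to 40.7) and 37.9 CPM (34.5 to 41.6) in the control and 32.2 and 49.2 CPM in the heme library. Cells with 3 to 9 *Camp* UMIs lay between these bins in each heme culture and on day 3 of the control. They did not in the control of days 4 and 5, at 17.5 CPM (10.0 to 28.5) and 49.7 CPM (35.8 to 67.2). Depth differed between the bins too, with medians of 6229 and 9100.0 UMIs in the heme library of day 7, and its part was not tested.

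**Figure D5:**
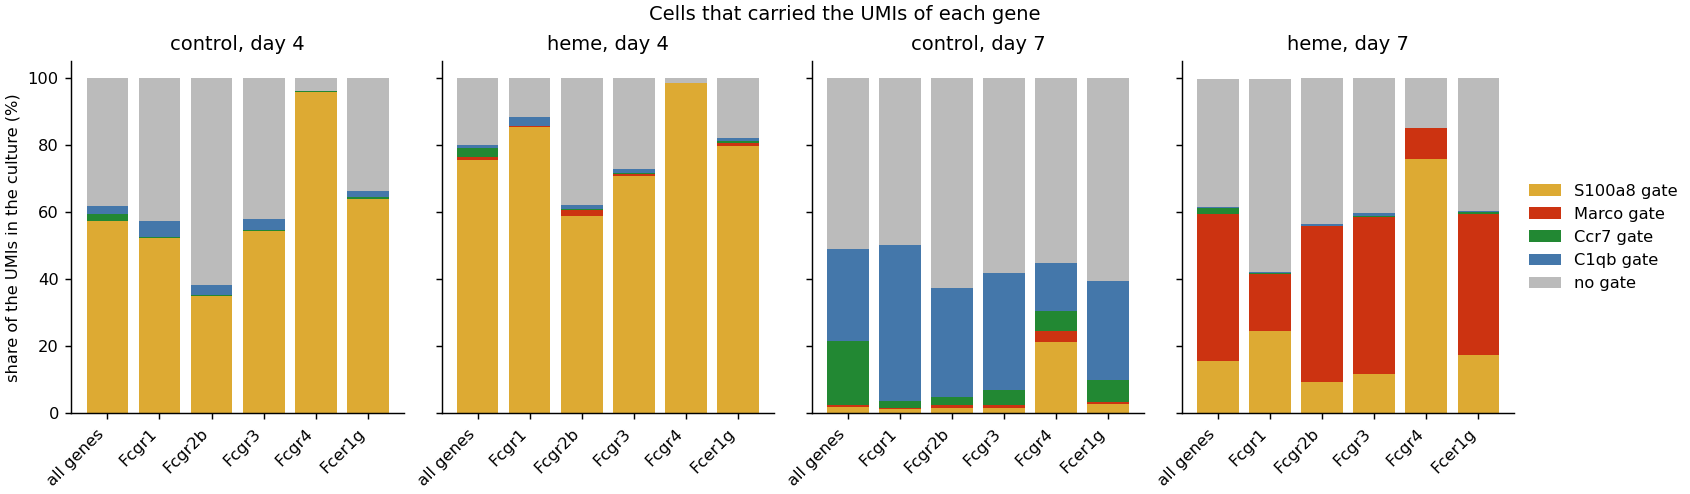
Share of the UMIs of all genes and of each member that each class of cells carried on days 4 and 7, with every cell in 1 class (order of precedence *S100a8*, *Marco*, *Ccr7*, *C1qb*, no gate). The *S100a8* gate carries 95.9% and 98.7% of *Fcgr4* on day 4, the *C1qb* gate 46.5% of *Fcgr1* in the control of day 7, and the *Marco* gate 46.4% of *Fcgr2b* but 16.8% of *Fcgr1* in the heme library of day 7.

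The balance of activating to inhibitory receptor was read as the UMIs of 1 gene over those of *Fcgr2b* in the same cells, which needs no total of the culture. *Fcgr1* over *Fcgr2b* went from 0.260 on day 3 over 0.410 and 0.638 to 0.407 (0.388 to 0.427) on day 7 in the control, and from 0.218 over 0.261 and 0.242 to 0.112 (0.101 to 0.125) in the heme library. *Fcgr3* over *Fcgr2b* was 1.27, 1.82, 1.99 and 1.41 (1.36 to 1.46) in the control and 1.09, 1.37, 1.70 and 1.46 (1.40 to 1.52) in the heme library. The *Fcgr3* ratio was thus lower with heme on days 3, 4 and 5, and on day 7 the 2 intervals overlapped. On day 7, *Fcgr1* over *Fcgr2b* was 0.577 in the *C1qb* gate of the control and 0.0408 (0.0312 to 0.0523) in the *Marco* gate of the heme library. *Fcgr4* over *Fcgr2b* was 0.0175 (0.0142 to 0.0214) in the control and 0.0662 (0.0576 to 0.0758) in the heme library of day 7, and 0.250 (0.147 to 0.407) and 0.536 (0.442 to 0.648) in their *S100a8* gates.

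The genes around the receptors were described through 5 lists, with values for those past 2-fold on day 7. Their ratios include the all-gene median of 0.28 (log2) given above, and 11.5% of all genes were called higher. Of 13 relatives of the Fc receptors, 2 reached 10 CPM, 0 were called higher and 1 lower, *Fcrls*, an Fc receptor-like scavenger gene, at 55.8 CPM in the control and 2.67 in the heme library (ratio 0.0479, 0.0373 to 0.0606). The neonatal Fc receptor *Fcgrt*, which salvages IgG, was the other one measured, at 29.5 and 45.6 CPM. Of 16 genes of signalling below the receptors, 14 were measured, 4 were called higher and 0 lower. These were *Lyn*, a Src-family kinase that acts on both ITAM and ITIM (77.9 to 172 CPM, ratio 2.20), the phospholipase *Plcg2* (2.08), *Syk*, the kinase that binds the phosphorylated ITAM (84.1 to 174 CPM, ratio 2.07), and the exchange factor *Vav1* (2.06). On day 3 the ratios of *Syk*, *Plcg2*, *Vav1* and *Lyn* were already 1.78, 1.66, 1.62 and 1.22, and divided by these the day 7 ratios were 1.16, 1.25, 1.28 and 1.80, with 0 of 4 past 2-fold. The other 10 measured genes lay between 0.794 (*Prkcd*) and 1.93 (*Lcp2*). The median log2 ratio of the signalling list was 0.59 on day 7 and 0.45 on day 3, beside 0.25 over all genes on the latter day.

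Of 8 genes listed as brakes on the receptors, all were measured on day 7. *Inpp5d*, the phosphatase SHIP1 that *Fcgr2b* recruits, was called higher (53.7 to 109 CPM, ratio 2.02, 1.91 to 2.15), and the ubiquitin ligase *Cblb* was called lower (20.7 to 6.98 CPM, ratio 0.337, 0.285 to 0.396). Of 6 other receptors that pair with the common chain, 3 were measured and 2 were called higher, the lectins *Clec4d* (83.9 to 300.2 CPM, ratio 3.58) and *Clec4n* (1273 to 3673 CPM, ratio 2.88), which bind microbial glycans. Divided by the day 3 ratios these were 2.64 and 2.49, while *Inpp5d* was at 1.51 and *Cblb* at 0.218. These partners were thus higher while the chain itself was at 0.831 of the control. The last list was drawn up as 9 other receptors with an ITIM, but it holds *Lilr4b*, a near copy of *Lilrb4a* that lacks the motif. Of the 8 others, all were measured, 6 were called higher and 0 lower. The largest ratios of the list were those of the adhesion molecule *Pecam1* (3.52 to 24.0 CPM, ratio 6.81), the sialic acid receptor *Siglece* (4.18), *Cd300a* (3.62), *Lilrb4a* (3.33), *Sirpa*, which binds CD47 (2.80), and *Lilr4b* (2.50). On day 3, *Lilrb4a* (2.70) and *Lilr4b* (2.05) were already past 2-fold, and the median log2 ratio of the list without *Lilr4b* was 0.57, compared with 1.61 on day 7. Divided by the day 3 ratios, *Pecam1* (5.00), *Cd300a* (4.24) and *Siglece* (2.40) stayed past 2-fold, and *Sirpa* (1.80), *Lilrb4a* (1.23) and *Lilr4b* (1.22) did not. Reads can be split between *Lilrb4a* and *Lilr4b*.

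The genes whose levels followed each member most closely were ranked by Pearson's r of log2(CPM + 1) over the 10 cultures, among 7888 genes with a mean of 10 CPM or more. The cultures of a library share its preparation and every profile includes the step from day 0 to day 3, so r is a description only. *Fcgr1* was followed most closely by *Bcl2a1a* (r = 0.994), *Bcl2a1b* (0.991) and *Bcl2a1d* (0.987), near-identical genes of the survival protein A1 between which reads can be split. *Bcl2a1b* stood at 252, 414, 705 and 965 CPM on days 3, 4, 5 and 7 of the control and at 184, 184, 256 and 149 CPM in the heme library, and thus was highest on day 7 of the control and lowest there after day 0 in the heme library. *Fcgr4* was followed by *Crispld2* (0.996), the gap junction gene *Gja5* (0.993) and the NAD kinase *Nadk* (0.988), and *Crispld2* peaked on day 4 in both libraries, at 42.7 and 72.1 CPM. *Fcgr2b* was followed by the glycolytic enzymes *Eno1* (0.991) and *Pgam1* (0.986) and by *C130050O18Rik* (0.983), *Fcgr3* by *Evi2a* (0.994), the annexin *Anxa2* (0.993) and *Metrnl* (0.992), and *Fcer1g* by *Ssu72* (0.992) and the oxidase subunit *Cyba* (0.989). Among the members, *Fcgr2b* and *Fcgr3* were the most alike (0.961), and *Fcgr4* was the least like the others (0.638 to 0.777).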

How the data were processed

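The values are raw counts of UMIs for each gene and barcode, as deposited, which the authors made with Cell Ranger (version 5.0.0 in the matrix headers, 4.0.0 in the methods) on droplet 3′ libraries, after removal of empty droplets. The submitters' notes name GRCm38.p6, and 26013 of 26124 gene identifiers were found in GENCODE M21. The deposited hashtag calls were made by the authors with HTODemux of Seurat 3.2.3. Doublets were treated through these calls alone, and those within 1 hashtag remain.

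Cells with 1 hashtag, 500 to 5000 genes, under 15% mitochondrial and under 30% ribosomal protein UMIs were kept. The methods word the latter limits the other way round. UMIs were summed per culture or gate (numpy 2.4.6, scipy 1.17.1). Depth was 122331102 control and 119876469 heme UMIs in kept cells. Ratios carry exact conditional intervals, checked on simulated data. Alternatives used edgeR and DESeq2 factors for scaling only. The members and lists were chosen with earlier results of these data known. Named were all members, the list genes past 2-fold on day 7 (up to 6 a list) and the 3 genes most alike to each member, of which 1 is not reported here.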

Additional observations from a re-analysis of the deposited data

Results flagged for a closer look

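The course of *Fcgr1* differed in direction between the libraries. Its level was multiplied by 1.63 from day 4 to day 5 and by 1.15 from day 5 to day 7 in the control, and by 0.881 and 0.605 in the heme library. From day 3 to day 7 the factors were 2.48 and 0.579. With 1 library in each group this difference was not tested. *Fcgr2b* changed sides between days, with heme to control ratios of 1.18 for day 4, 1.07 for day 5 and 0.778 for day 7. This difference was not tested either, and the ratios of days 4 and 5 depend on the scaling.

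The barcodes that carried more than 1 hashtag, 1259 control and 1996 heme, entered no comparison. They held *Fcgr2b* at 94.3 CPM in the control and 103 CPM in the heme library, a ratio of 1.1 (1.05 to 1.14), and *Fcgr1* at 41.5 and 21.7 CPM (0.523, 0.486 to 0.564). *Fcgr4* stood at 9.52 and 9.21 CPM there (0.967, 0.844 to 1.11), unlike its higher heme level in the cultures. These barcodes mix cultures and days.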

How the results depend on the processing

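No paired analysis was possible because each group is 1 library and no result comes from a test. The median log2 ratio of the members on days 4, 5 and 7 (-0.17, -0.13 and -0.31) became -0.46, -0.42 and -0.57 with TMM factors, -0.42, -0.38 and -0.57 with DESeq2 size factors, -0.25, -0.20 and -0.41 without ribosomal protein genes in the total, and -0.09, -0.05 and -0.23 divided by the day 3 ratio. On days 4 and 5 it was -0.06 and -0.31 with all single-hashtag cells, -0.06 and -0.30 without the upper limit on genes, and -0.31 and -0.22 after thinning, which left 0 members called lower on day 5. Without the 5% deepest cells it was -0.20 on day 5. It stayed below 0 in each of these settings.

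*Fcgr2b* turned to -0.20, -0.05 and -0.19 on days 3, 4 and 5 with TMM factors and to -0.13, -0.01 and -0.15 with DESeq2 size factors. On day 5 it also turned to -0.07 as a mean of single-cell CPM, -0.09 after thinning, -0.04 without the deepest cells and -0.03 divided by the day 3 ratio. On day 5 *Fcgr3* turned to 0.20 with all single-hashtag cells or without the upper limit on genes, and *Fcgr4* to -0.31 and -0.30, and to -0.00486 divided by the day 3 ratio. *Fcgr1* kept its direction in all 10 alternatives, between -2.48 and -1.88 on day 7 and between -1.58 and -0.84 on day 5, as did *Fcer1g*, between -0.53 and -0.14 on day 7. The cause of these shifts was not tested.

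In the *S100a8* gate of day 7 the members' median of -0.52 became -0.60 with all single-hashtag cells and -0.62 without the upper limit on genes. For the *Ccr7* gate against cells of no gate, -2.22 became -1.81 with gates at 1 UMI, -2.53 without cells of more than 1 gate and -4.00 with gates set after thinning. Of *Fcgr4*, day 7 lay between 0.96 and 1.55 and day 3 between 0.05 and 0.63. Leaving out shared barcodes, like the division of the pathway ratios by day 3 an alternative chosen after seeing the data, kept all 20 member ratios within their intervals. Counting error limits *Fcgr4* most, with 98 and 224 UMIs on day 7.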
